A study of Mus musculus with 3 samples.

Results

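Open chromatin over the exons of protein-coding genes, away from any annotated start of transcription, was described in 3 samples of differentiating mouse embryonic stem cells. The peaks of the 3 samples on 16 autosomes (all but chromosomes 6, 8 and 11) were merged. A merged region was kept when it overlapped an exon of a protein-coding gene and lay over 5 kb from every start of a protein-coding, lincRNA or antisense gene. This left 8841 exonic regions of 144115 merged regions. They made up 8.89% (Wilson 95% interval 8.72 to 9.07) of the 99433 regions that lay over 5 kb from a start.

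The assay was ATAC-seq, which maps open chromatin through the insertion of sequencing adapters by a transposase, on 50000 cells per sample after 72 h of differentiation. All cells were of the HM1 (129) line and grew in 10 ng/ml bFGF and 5 µM LGK974, an inhibitor of WNT secretion, with CHIR99021, a GSK3 inhibitor that switches on WNT signalling, added after 2 days. SOX2-ON cells were Sox2-/- cells whose only source of SOX2 was a doxycycline-inducible transgene at the Hprt locus, driven by rtTA from Rosa26 and kept on with 1 µg/ml doxycycline. SOX2-OFF cells were the same Sox2-/- line with doxycycline withdrawn during differentiation, and CEpiLC (caudal epiblast-like cells) were wild-type cells of the parental line that received no doxycycline. Each group had 1 sample and thus no replicates, so all values are given without tests, and the intervals cover counting error only. Regions within a list share their library and are not replicates of a condition. SOX2-ON and SOX2-OFF differ in doxycycline within 1 engineered line, whereas CEpiLC also differ from both in genotype and line, so genotype, line and doxycycline cannot be told apart there.

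The lists held 85388 (SOX2-ON), 86563 (SOX2-OFF) and 95025 (CEpiLC) peaks on the 16 chromosomes. Read totals are not in the peak lists, so the depth is unknown. Both fold enrichment and −log10 p grow with depth, and the −log10 p that marked the strongest 20% of a list was 22.1 for SOX2-ON, 17.6 for SOX2-OFF and 8.44 for CEpiLC. Strength was therefore compared as a percentile within each list, where 100 is the strongest peak. Chromosomes 6 and 8 held 15870 to 20161 peaks each in the engineered samples against 5934 to 6312 in CEpiLC, and chromosome 11 held 22008 in CEpiLC against 7276 to 7457, which is why these chromosomes were left out. As a check of the labels, a peak covered the starts of Sox2, T, Cdx2, Nanog and Klf4 in all 3 lists and that of Hprt in none, so these starts did not tell the samples apart.

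Exons carry the protein-coding sequence and the untranslated regions of a gene, and in vertebrates they are richer in G and C than the introns around them. Most regulatory elements known from open chromatin are promoters, introns or intergenic enhancers, but some exons also hold enhancers for their own or a neighbouring gene, and some hold CpG islands away from an annotated promoter. The peak lists record only where DNA was cut more often than the surroundings.

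Short stretches of 6 members whose midpoint lay in coding sequence are shown to let the range of composition and location be seen, each 160 bp around the midpoint of the region in mouse build GRCm38/mm10, read from the RefSeq genome in the 5′ to 3′ direction of the gene. Capitals mark bases annotated as coding, lower case marks intron. Zfp771, a C2H2 zinc finger gene, holds the strongest member centred on coding sequence (chr7:127254286-127254445, plus strand), and its stretch was 75% G or C with 28 CpG. Irx4, an Iroquois homeobox gene, is the strongest member of the homeobox families (chr13:73268699-73268858, plus strand). Nodal, a TGF-beta family ligand of the early embryo, is the single member in the early streak list (chr10:61423411-61423570, plus strand). Kdr, the receptor for VEGF that marks early vascular progenitors, had a strong peak in SOX2-ON alone (chr5:75941780-75941939, minus strand) and was chosen after its values were seen. Zbtb24, a zinc finger factor linked to DNA methylation, shifted towards SOX2-OFF (chr10:41464550-41464709, plus strand). Fry, a scaffold for NDR kinases, had its peak in CEpiLC alone (chr5:150445755-150445914, plus strand).
Zfp771: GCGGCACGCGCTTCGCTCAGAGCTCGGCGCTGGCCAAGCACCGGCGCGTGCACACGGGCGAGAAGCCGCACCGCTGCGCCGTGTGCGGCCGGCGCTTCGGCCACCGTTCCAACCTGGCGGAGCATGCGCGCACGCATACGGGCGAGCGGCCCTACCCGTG
Irx4: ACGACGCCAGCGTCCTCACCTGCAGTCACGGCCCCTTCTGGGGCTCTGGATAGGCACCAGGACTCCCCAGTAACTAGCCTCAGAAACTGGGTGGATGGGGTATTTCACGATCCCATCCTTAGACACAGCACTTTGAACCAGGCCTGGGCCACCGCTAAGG
Nodal: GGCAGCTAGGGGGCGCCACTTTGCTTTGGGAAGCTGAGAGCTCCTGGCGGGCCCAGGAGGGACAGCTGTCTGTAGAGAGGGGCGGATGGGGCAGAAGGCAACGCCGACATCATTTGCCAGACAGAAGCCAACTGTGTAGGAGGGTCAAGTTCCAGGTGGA
Kdr: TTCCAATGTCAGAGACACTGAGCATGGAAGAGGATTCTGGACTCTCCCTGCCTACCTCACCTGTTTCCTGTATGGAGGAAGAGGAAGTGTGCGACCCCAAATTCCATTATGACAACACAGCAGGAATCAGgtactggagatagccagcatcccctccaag
Zbtb24: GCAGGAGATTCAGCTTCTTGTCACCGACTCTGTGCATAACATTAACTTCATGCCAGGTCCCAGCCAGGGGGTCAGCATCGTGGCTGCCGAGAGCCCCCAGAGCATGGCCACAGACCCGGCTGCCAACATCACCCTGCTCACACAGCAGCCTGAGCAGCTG
Fry: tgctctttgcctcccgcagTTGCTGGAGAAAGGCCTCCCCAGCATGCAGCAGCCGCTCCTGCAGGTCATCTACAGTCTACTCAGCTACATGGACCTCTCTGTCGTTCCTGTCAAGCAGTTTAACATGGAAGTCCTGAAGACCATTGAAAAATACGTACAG
The stretches of Zfp771, Irx4, Nodal and Zbtb24 were coding throughout, while the Kdr stretch ran out of its exon into the next intron and the Fry stretch began in the intron before it.

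Exonic sequence was covered by peaks more often than the rest of the sequence far from starts, in each of the 3 samples. It made up 1.84% of all bases over 5 kb from a start (31.7 Mb), and the peaks of SOX2-ON covered 5.82% of it, those of SOX2-OFF 7.09% and those of CEpiLC 5.63%. Of the intronic bases, 2.59%, 3.19% and 2.5% were covered, so that exonic coverage was 2.25, 2.22 and 2.26 times that of introns. Coding sequence stood highest, with 8.20%, 8.81% and 7.92% of its bases under a peak. Untranslated 3′ sequence followed with 4.66%, 6.53% and 4.61%, and sequence outside coding genes was lowest at 1.99%, 2.38% and 1.93%. The order coding, 3′ UTR, intron, outside was the same in all 3 lists. SOX2-OFF covered the most bases in every class, and its peaks were also the widest (median 737 bp, against 635 bp in SOX2-ON and 520 bp in CEpiLC). The part of peak width in that difference was not tested. Bases covered in all 3 lists came to 2.34% of exonic and 0.841% of intronic sequence.

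**Figure D1:**
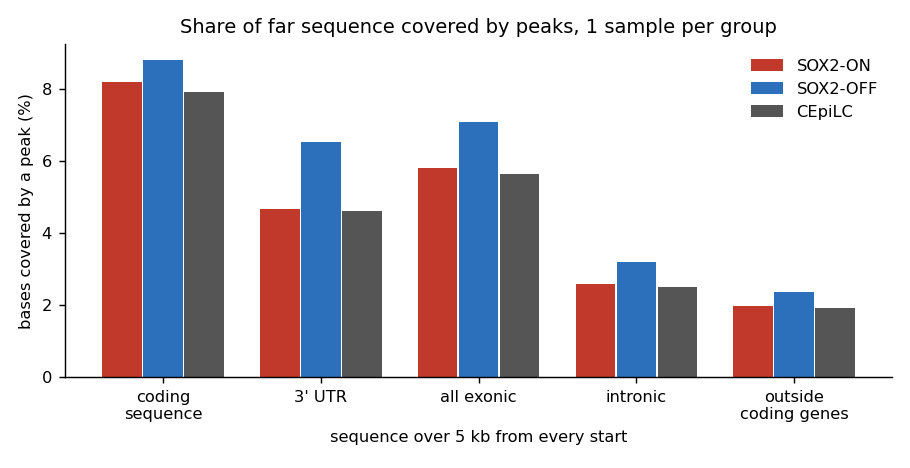
Share of bases over 5 kb from every start that lie under a peak (y axis, percent), by kind of sequence (x axis) and sample (colours), with 1 sample per bar and hence no error bar. Coding sequence is highest in each sample (7.92% to 8.81%) and sequence outside coding genes lowest (1.93% to 2.38%).

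Most members touched coding sequence, but fewer were centred on it. Of the 8841 exonic regions, 6964 (78.8%, interval 77.9 to 79.6) touched coding sequence, 1492 (16.9%) touched a 3′ UTR and no coding sequence, 72 (0.814%) touched a 5′ UTR alone and 313 (3.54%) an exon of a non-coding transcript alone. The midpoint lay in an exon for 4267 (48.3%, 47.2 to 49.3), in coding sequence for 2196 (24.8%) and in a 3′ UTR for 1984 (22.4%). Members were 149 to 6225 bp wide with a median of 725 bp. Only 2099 (23.7%) were wholly exonic, and 1315 (14.9%) were under 10% exonic. An internal exon was touched by 65.6% and a last exon by 46.7%, and 13.0% held the annotated end of a coding transcript.

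Regions that touched coding sequence and those in 3′ UTRs differed in more than position. A member touching coding sequence was a median 28.2% exonic and had its midpoint in an exon in 40.2% of cases, whereas the 3′ UTR members were a median 100% exonic with 83.2% centred in an exon. Median GC was 52.4% in the first class and 49.5% in the second. A peak in all 3 lists was held by 33.5% and 24.1% of them.

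**Figure D2:**
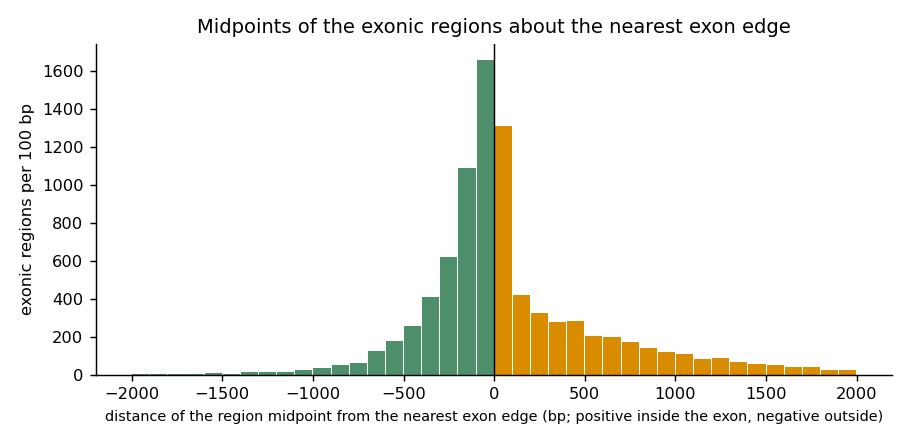
Number of exonic regions per 100 bp (y axis) by the distance of the region midpoint from the nearest exon edge (x axis, bp, positive inside the exon and negative outside). Midpoints gather at the edge, with a median distance of 330 bp inside and 151 bp outside, which the requirement to touch an exon favours.

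As peaks, the exonic regions were weak. The median percentile of a member's best peak within its list stood at 37.6 for SOX2-ON, 39.0 for SOX2-OFF and 41.0 for CEpiLC, against 50.1 to 50.6 over all merged regions. Their median fold enrichment was 1.65, 1.57 and 1.68, with ranges of 1.30 to 23.8, 1.30 to 18.9 and 1.40 to 20.5. Intronic regions had median percentiles of 40.4, 38.3 and 39.7. The strongest 20% of a list held 388 members in SOX2-ON and 413 in SOX2-OFF, against 503 in CEpiLC, and 704 members (7.96%, 7.42 to 8.55) were strong in at least 1 list, 225 of them in all 3. Over all regions 16.5% were strong in at least 1 list.

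Members lay 5002 to 398718 bp from the nearest start, with a median of 11412 bp. The 1000 members 5 to 6 kb away and the 1016 exonic regions 4 to 5 kb away, just outside the rule, had a peak in all 3 lists in 32.9% (30.1 to 35.9) and 34.4% (31.6 to 37.4) of cases and were strong in 7.10% and 10.2%. Beyond 50 kb, 28.4% (24.7 to 32.4) of 532 members were in all 3 lists.

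A peak in all 3 lists was the most frequent pattern. It was found for 2794 members (31.6%, 30.6 to 32.6), and over all merged regions the share was 31.2%. CEpiLC alone held 1685 members (19.1%, all regions 20%), SOX2-ON alone 1277 (14.4%, all regions 16.4%) and SOX2-OFF alone 1213 (13.7%, all regions 13.4%). SOX2-OFF and CEpiLC shared 783 (8.86%, all regions 8.66%), SOX2-ON and SOX2-OFF shared 630 (7.13%, all regions 6.47%), and SOX2-ON and CEpiLC shared 459 (5.19%, all regions 3.88%). The share in all 3 lists lay within its interval of that over all regions, but this rested on weak peaks being included. With peaks of −log10 q of at least 2 it was 34.2% against 37.7% over all regions, and at 5 or more 30.4% against 41.7%. The patterns of SOX2-ON with CEpiLC (interval 4.75 to 5.67) and SOX2-ON with SOX2-OFF (6.61 to 7.68) were more frequent in members than over all regions. Those of SOX2-ON alone (13.7 to 15.2) and CEpiLC alone (18.3 to 19.9) were less frequent. The intervals of SOX2-OFF alone (13.0 to 14.5) and SOX2-OFF with CEpiLC (8.28 to 9.47) held the share over all regions.

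**Figure D3:**
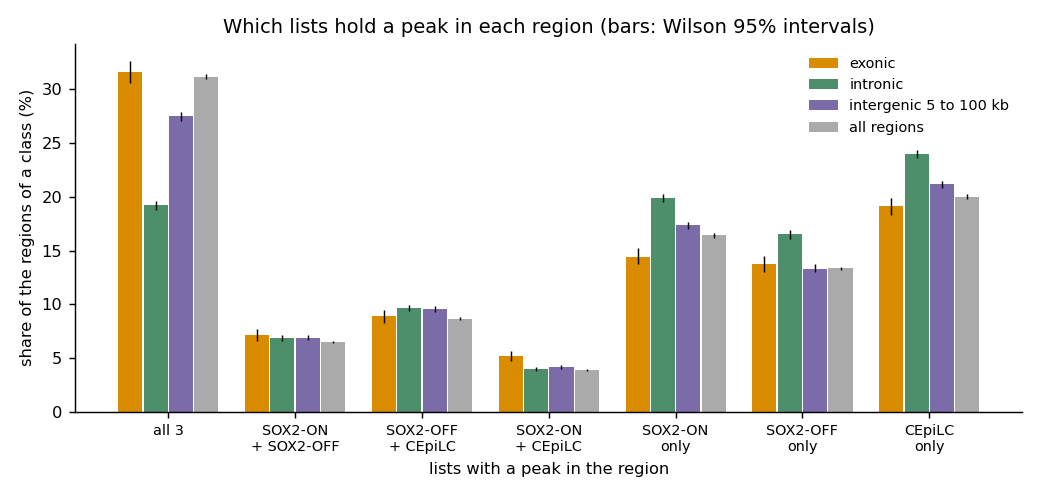
Share of the regions of each class (y axis, percent) by which lists hold a peak in them (x axis), for exonic, intronic, intergenic (5 to 100 kb from a start) and all merged regions, with Wilson 95% intervals that cover counting error only. Exonic regions sit near all regions, with 31.6% in all 3 lists against 31.2%, and intronic regions below at 19.2%.

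Compared with introns, exonic regions were shared more. Intronic regions over 5 kb from a start were in all 3 lists in 19.2% (18.8 to 19.6) of 36312 cases and intergenic regions 5 to 100 kb from a start in 27.5% (27.1 to 27.9) of 44877. Exonic exceeded intronic on each of the 16 chromosomes, at 28.2% to 36.8% against 17.4% to 21.2%. Width moved with this difference: members had a median width of 725 bp and intronic regions of 500 bp, and wide regions were in all 3 lists far more often. Among regions of 400 to 800 bp the shares were 15.2% (13.8 to 16.6) exonic and 14.1% (13.4 to 14.7) intronic. Among those of 800 to 1600 bp they were 48.4% (46.5 to 50.3) and 41.9% (40.8 to 43.0), and among those of 1600 to 3200 bp 78.3% (75.9 to 80.6) and 70.9% (69.0 to 72.7). The difference over all widths, 12.4 points, was larger than that within any of these widths. Intergenic regions stood above exonic ones in each of them, at 18.1%, 51.3% and 79.8%. Bins of width were added after the values were seen.

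Within bins of strength the shares also differed. With the strongest peak between percentiles 60 and 80, 69.1% (66.8 to 71.3) of exonic and 45.5% (44.3 to 46.7) of intronic regions were in all 3 lists, and between 80 and 100 the shares were 89.6% (87.2 to 91.7) and 73.5% (71.8 to 75.1). With every peak set to 500 bp around its midpoint, they were 55.8% (53.2 to 58.3) and 39.7% (38.6 to 40.8), then 83.6% (80.4 to 86.4) and 66.6% (64.8 to 68.3). Over all regions, which include those near starts, the share in the top bin was 88.8% with full peaks, within the interval of the exonic share. Intergenic regions of the top bin stood at 80.9% with full peaks and 70.1% with the 500 bp intervals.

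**Figure D4:**
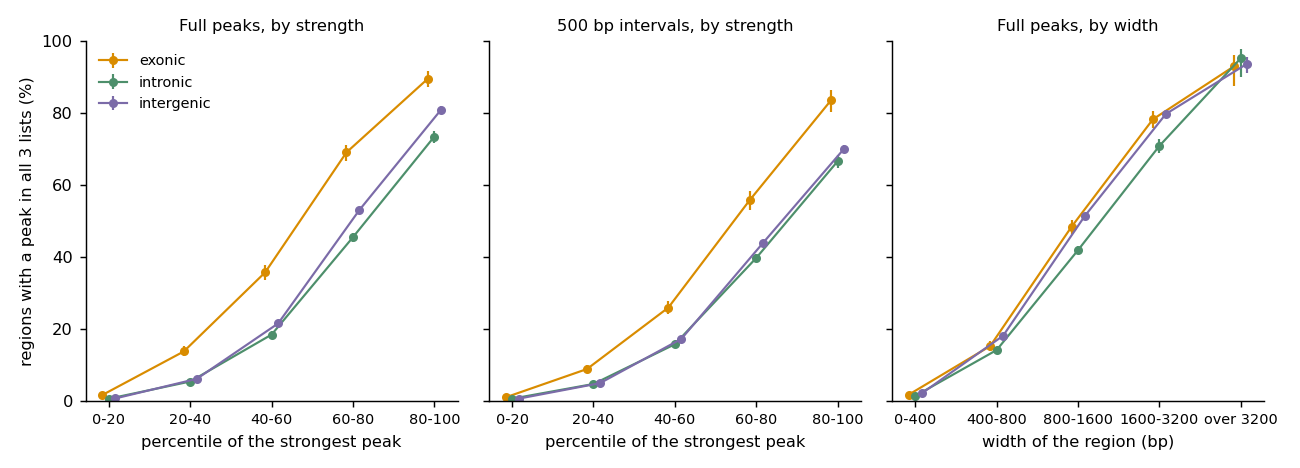
Share of regions with a peak in all 3 lists (y axis, percent) for exonic, intronic and intergenic regions, by percentile of the strongest peak with full peaks (left), the same with 500 bp intervals (middle) and by width of the region in bp (right), with Wilson 95% intervals. At equal strength the exonic line lies above the others (89.6% against 73.5% intronic in the top bin), and by width the exonic line lies between the others from 400 to 3200 bp (48.4% at 800 to 1600 bp, against 41.9% intronic and 51.3% intergenic).

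The strongest members had a peak in all 3 lists. The highest fold enrichment belonged to a region wholly inside the 3′ UTR of Lars2, the mitochondrial leucyl-tRNA synthetase, at 23.8 for SOX2-ON, 18.9 for SOX2-OFF and 20.5 for CEpiLC (chr9:123461800-123462187). It ranked at percentile 100 in each list, and its −log10 p in SOX2-ON was 8700 over 388 bp, against 463 for the Zfp771 region. No near-identical copy of it was found, but it was not checked against a list of regions prone to false signal, so whether it marks open chromatin was not tested. The Zfp771 region whose sequence is shown above was second by −log10 p in SOX2-ON, 62.1% G or C over 1460 bp, with folds of 5.92, 4.08 and 3.34 and percentiles of 99.7, 99.5 and 98.7. Prdm2, a PR-domain zinc finger gene, held a region that was 64.0% G or C at folds of 6, 4.94 and 4.49 and percentiles of 99.1, 99.6 and 99.7, above Zfp771 in SOX2-OFF and CEpiLC. Srrm3, a splicing regulator of neural microexons, followed at percentiles of 97.6, 97.2 and 94.6, and Ttll8, a tubulin glycylase, at 96.4, 97.9 and 97.4. Abhd6, a monoacylglycerol lipase, ranked at 97.7 in SOX2-ON and 93.2 in SOX2-OFF, against 89.6 in CEpiLC. The genes 9030025P20Rik and 3300002I08Rik completed the top 5 of CEpiLC, at percentiles of 98.8 each there and of 92.8 each in SOX2-ON. In none of these members did the groups differ in whether a peak was present. The regions of Prdm2, Abhd6, Srrm3, Ttll8 and 3300002I08Rik had their midpoint outside exons and were 3.51% to 20% exonic.

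CpG-rich sequence was more frequent among the strongest members. Regions of at least 200 bp with at least 50% G or C and an observed over expected CpG ratio of at least 0.6, a measure of CpG island character chosen after the values were seen, made up 168 members (1.90%, 1.64 to 2.21), 0.410% (0.350 to 0.482) of intronic and 1.06% of intergenic regions. Over all regions, those near starts included, the share was higher at 5.69% (5.57 to 5.81). Among the 704 strong members 65 (9.23%, 7.31 to 11.6) were CpG rich, and all 65 had a peak in all 3 lists, against 566 of the other 639 (88.6%, 85.9 to 90.8). CpG-rich members were centred on an exon in 150 of 168 cases. Of the strong members that were not CpG rich, 236 of 639 (36.9%) were centred on an exon. The median percentiles of the 168 CpG-rich members were 72.5, 77.2 and 78.0 in the order SOX2-ON, SOX2-OFF, CEpiLC. Those of all members that were not CpG rich were 36.8, 38.5 and 40.6.

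A strong member that lacked a peak in another list was uncommon and was most often one of SOX2-ON. Of 388 members strong in SOX2-ON, 40 (10.3%, 7.66 to 13.7) had no SOX2-OFF peak, where the share over all regions was 6.58% and that of intronic regions 23.3%. No CEpiLC peak was found for 49 (12.6%, 9.69 to 16.3; all regions 9.83%, intronic 32.8%). In the reverse direction, 10 of 413 strong in SOX2-OFF had no SOX2-ON peak (2.42%, 1.32 to 4.40; all regions 1.91%), and 10 of 503 strong in CEpiLC had none (1.99%, 1.08 to 3.62; all regions 2.56%). Between SOX2-OFF and CEpiLC, 2 of 413 strong in SOX2-OFF lacked a CEpiLC peak (0.484%, 0.133 to 1.75; all regions 1.15%) and 5 of 503 strong in CEpiLC lacked a SOX2-OFF peak (0.994%, 0.425 to 2.31; all regions 0.929%). With the strongest 40% of a list as strong, all 6 shares lay below those over all regions. With the strongest 10%, 3 of 71 strong in SOX2-ON lacked a SOX2-OFF peak (4.23%, all regions 0.844%) and 3 a CEpiLC peak (all regions 1.66%). Of 52 strong in SOX2-OFF, 0 lacked a peak in either other list. Of 103 strong in CEpiLC, 1 lacked a SOX2-ON peak and 0 a SOX2-OFF peak. With every peak set to 500 bp, members strong in SOX2-ON stood close to all regions. They lacked a SOX2-OFF peak in 11.4% (all regions 10.4%) and a CEpiLC peak in 13.0% (all regions 13.2%). The −log10 p that marks a strong peak was also highest in SOX2-ON, and its part in these counts was not tested.

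The regions behind the last counts are named after their values were seen. The 2 regions strong in SOX2-OFF without a CEpiLC peak lay in Gbp5, an interferon-induced GTPase, and Vcan, the extracellular matrix proteoglycan versican, and both were also strong in SOX2-ON (percentiles 84.6 and 88.3). The 5 strong in CEpiLC without a SOX2-OFF peak lay in 5031410I06Rik, Gm9602, Gm3667, Slc8a2, a sodium-calcium exchanger, and Syn3, a synapsin of synaptic vesicles. Near-identical sequence elsewhere in the genome, with at least 95% identity over at least 50% of the region, was found for 5031410I06Rik (2 further copies), Gm9602 (4) and Gm3667 (19), so reads there may come from any copy. Such copies were found for 26 of all 8841 members (0.294%), a lower limit since the search reports few of the copies of a repeat.

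Of the 40 regions strong in SOX2-ON without a SOX2-OFF peak, 37 also lacked a CEpiLC peak. The strongest, in Cemip2, a cell-surface hyaluronidase, had a fold of 4.93 and percentile of 92.3 in SOX2-ON and no peak in the other lists. The Cemip2 region was 9.55% exonic, with its midpoint outside exons. Gtf2e1, a subunit of the general transcription factor TFIIE, had 4.54 and 90.5 in SOX2-ON alone, and the odorant receptor gene Olfr147 had 4.91 and 90.1. The Kdr region shown above had a fold of 3.37 and percentile of 87.0, and was 10.9% exonic although its midpoint lay in coding sequence. Tle4, a Groucho co-repressor that acts with TCF/LEF factors, held the strongest member of the WNT pathway list, over an exon of a non-coding transcript, at 3.20 and 82.9 in SOX2-ON and without a peak in SOX2-OFF or CEpiLC. The absence of a called peak does not show that the site was closed, since a weaker peak may have missed the caller's threshold.

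**Figure D5:**
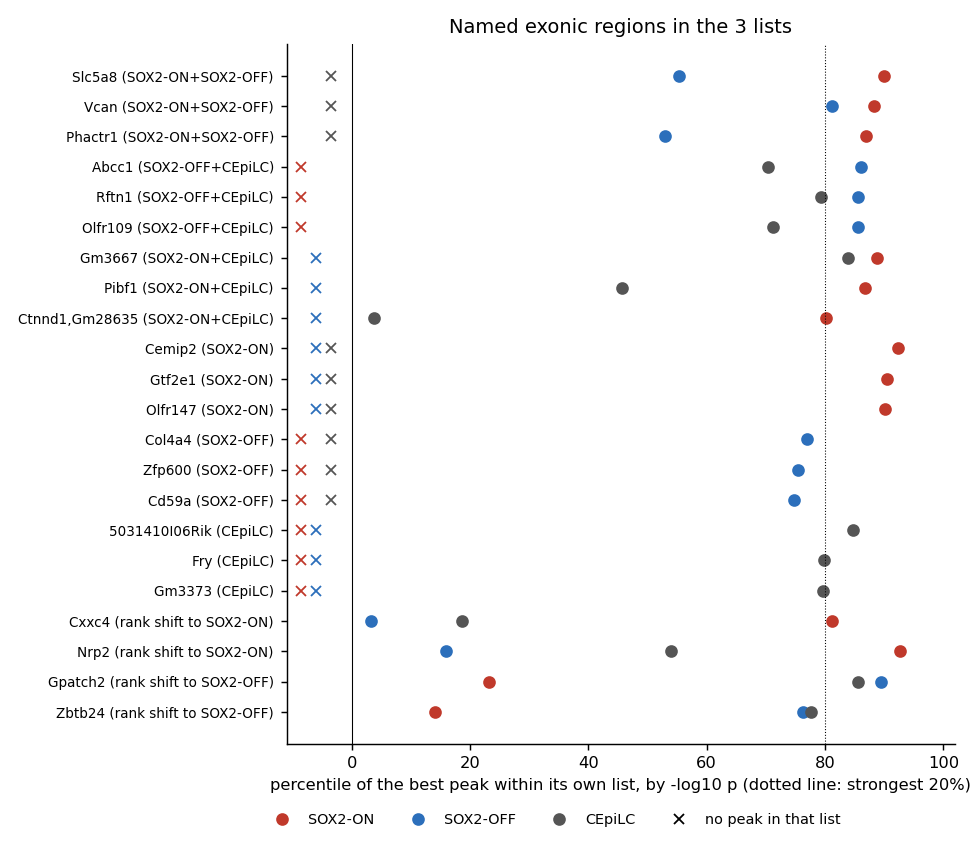
Percentile of the best peak of each named region within its own list (x axis, 100 is strongest), for the 3 strongest members of each pattern that lacks a list and the 2 largest rank shifts in each direction between SOX2-ON and SOX2-OFF (y axis). Crosses left of 0 mark lists with no peak. Cemip2, at 92.3, has a peak in SOX2-ON alone, and Cxxc4 lies at 81.1 in SOX2-ON and 3.25 in SOX2-OFF.

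Members found in only some of the lists were led by genes of many kinds. Slc5a8, a monocarboxylate transporter, lay at percentiles of 89.9 in SOX2-ON and 55.4 in SOX2-OFF without a CEpiLC peak, and Phactr1, a regulator of actin and protein phosphatase 1, at 87.0 and 52.9. Abcc1, an efflux transporter, was at 86.0 in SOX2-OFF and 70.3 in CEpiLC, Rftn1, a lipid raft protein, at 85.6 and 79.3, and the odorant receptor gene Olfr109 at 85.6 and 71.2, all without a SOX2-ON peak. Pibf1, a centriolar satellite protein, had 86.8 in SOX2-ON and 45.7 in CEpiLC but no SOX2-OFF peak, as had a region shared by Ctnnd1, the adhesion protein p120-catenin, and Gm28635 (80.2 and 3.79). SOX2-OFF alone covered a 3′ UTR region of the collagen gene Col4a4 (77.0), a region of Zfp600 (75.5, with 1 near-identical copy elsewhere) and one of Cd59a, a complement inhibitor (74.7). CEpiLC alone covered Fry (79.9) and Gm3373 (79.6), the latter with 6 near-identical copies. The regions of Slc5a8, Phactr1, Rftn1, Olfr109, Pibf1, Zfp600 and Cd59a had their midpoint outside exons and were 5.01% to 23.9% exonic.

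Where both lists had a peak, ranks were compared. Between SOX2-ON and SOX2-OFF, 3424 members had both, and their percentile in SOX2-ON minus that in SOX2-OFF had a median of -3.37 with quartiles of -13.1 and 5.48. A shift of at least 20 points towards SOX2-ON was found for 321 (9.38%, 8.44 to 10.4; all regions 8.85%) and towards SOX2-OFF for 509 (14.9%, 13.7 to 16.1; all regions 14.6%). At this limit of 20 points, both intervals hold the share over all regions. Of 3253 members in SOX2-ON and CEpiLC, 355 ranked higher in SOX2-ON (10.9%, 9.89 to 12.0; all regions 8.85%) and 778 in CEpiLC (23.9%, 22.5 to 25.4; all regions 21.1%). Of 3577 in SOX2-OFF and CEpiLC, 407 ranked higher in SOX2-OFF (11.4%, 10.4 to 12.5; all regions 8.93%) and 572 in CEpiLC (16%, 14.8 to 17.2; all regions 12.9%). These last 4 shares exceeded the share over all regions, in both directions of each pair. Intronic regions shifted more often still in all 6 directions, at 12.3% to 28.4%.

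The largest shift towards SOX2-ON was in the 3′ UTR of Cxxc4, a CXXC zinc finger protein that binds Dishevelled and restrains WNT signalling, from percentile 3.25 in SOX2-OFF to 81.1 in SOX2-ON, with 18.6 in CEpiLC. Nrp2, a co-receptor for semaphorins and VEGF, had 92.7 in SOX2-ON and 16 in SOX2-OFF, against 53.9 in CEpiLC. In the other direction Gpatch2, which encodes a G-patch protein, had 23.2 in SOX2-ON and 89.5 in SOX2-OFF, against 85.5 in CEpiLC. The Zbtb24 region shown above had 14.1, 76.3 and 77.7, and Gc, the vitamin D binding protein, had 3.18, 65.3 and 68.6. These regions were picked for the size of their shift and are a description.

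Exonic regions were richer in G and C than other far regions. Their median GC was 51.7% (quartiles 48.0 and 55.4), against 49.0% in intronic and 49.1% in intergenic regions, and 52.5% where the midpoint lay in an exon. The ratio of observed to expected CpG had a median of 0.249 against 0.183 in introns, and repeats made up a median 7.94% against 11.5%.

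The middle 200 bp of every region was read in both directions for the consensus motifs of 15 factor families. A match describes letters in the window and not binding. ZIC (CAGCAGG) was found in 10.6% (9.97 to 11.3) of members, 9.35% (9.05 to 9.65) of intronic and 9.37% of all regions, and in 12.0% (11.1 to 13.0) of members centred on an exon. In this window the AT-rich motifs were rarer than in introns. The motif of GATA factors (AGATAA) was in 7.84% (7.30 to 8.42) against 10.6% (10.3 to 11). CDX/HOX (TTTATNG) was in 5.56% (5.11 to 6.06) against 7.77% (7.5 to 8.05). The octamer (ATGCAAAT), bound by OCT factors, was in 0.927% (0.748 to 1.15) against 1.41% (1.30 to 1.54). AP-1 (TGANTCA) was in 5.43% (4.98 to 5.92) against 7.21% (6.95 to 7.48). SOX (ACAANG) was in 36.1% (35.1 to 37.1) against 38.9% (38.4 to 39.5), with 36.4% over all regions. The GC content differs between these classes in the same direction, and its part was not tested. Over the whole region, GATA was in 28.3% of members and 27.7% of introns, CDX/HOX in 23.0% and 22.2%, and AP-1 in 21.9% and 20.3%. SOX was then in 74.5% and 68.8%, and of these motifs only the octamer stayed rarer (3.95% and 4.11%). Members were wider than intronic regions (median 725 against 500 bp), and the part of width was not tested. For the other motifs, again in the middle 200 bp, the share of members is given first and that of introns next. CTCF was in 2.81% and 2.27%, KLF/SP (GGGNGTGG) in 7.88% and 7.29%, FOX (TGTTTAC) in 2.34% and 2.89%, FOXH1 (AATNCACA) in 2.58% and 3.54%, and TCF/LEF (ATCAAAG) in 2.97% and 3.54%. T/BRA (AGGTGTGA) was in 1.19% and 1.22%, ESRRB (TCAAGGTCA) in 0.430% and 0.457%, RFX in 0.215% and 0.256%, and REST in 0.0566% and 0.0633%. Over all regions ZIC, GATA, CDX/HOX, OCT and AP-1 stood at 9.37%, 9.53%, 7.12%, 1.32% and 6.46%, and CTCF, KLF/SP, FOX, FOXH1 and TCF/LEF at 2.65%, 8.27%, 2.65%, 3.14% and 3.37%. T/BRA, ESRRB, RFX and REST were in 1.16%, 0.426%, 0.311% and 0.0749% of all regions.

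Among the members strong in SOX2-ON, the SOX motif was in 22 of the 40 without a SOX2-OFF peak (55%, 39.8 to 69.3) and in 118 of the 348 with one (33.9%, 29.1 to 39.0). The median GC of these 40 was 45.7%, against 52.5% for all 388 strong in SOX2-ON. With regions under 50% GC alone, the shares were 20 of 37 (54.1%, 38.4 to 69.0) and 58 of 117 (49.6%, 40.7 to 58.5) and their intervals overlapped. The part of GC was not tested. GATA was in 10 of the 40 (25%, 14.2 to 40.2) and 20 of the 348 (5.75%, 3.75 to 8.71), and under 50% GC in 9 of 37 (24.3%, 13.4 to 40.1) and 16 of 117 (13.7%, 8.60 to 21.1), intervals that overlap. CTCF was in 0 of the 40, which allows a share of up to 8.76%, and in 16 of the 348 (4.60%).

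Members were spread over many genes. Of 10714 coding genes with exonic sequence over 5 kb from a start, 4851 (45.3%) held at least 1 member, 2667 held exactly 1 and 223 held 5 or more. The share rose with the length of that sequence, from 30.1% of genes with under 2 kb to 70.2% of those with 8 to 16 kb. Dnah8, an axonemal dynein heavy chain, held the most, 14 members, of which 11 had a peak in SOX2-ON and 12 in SOX2-OFF, against 9 in CEpiLC. Mtor, the growth-controlling kinase, Ubr4, a ubiquitin ligase, and Wdfy3, an autophagy adaptor, held 12 each, and none of their regions was strong. Wdfy3 was uneven, with 4 members in SOX2-ON and 11 in SOX2-OFF, against 6 in CEpiLC. The ryanodine receptor gene Ryr1, a calcium channel, held 11, of which 9 were in all 3 lists and 6 were strong. Sptbn4, a spectrin, also held 11 with 7 in all 3 lists and 4 strong, whereas Ryr3 and Zan, which encodes the sperm protein zonadhesin, held 11 with 4 and 2 in all 3 lists.

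Exonic sequence far from starts came to 21.7 kb in the naive pluripotency list and 7.62 kb in the anterior epiblast and neural list. It was 5.25 kb in the early streak and mesendoderm list and 3.54 kb in the caudal epiblast and paraxial mesoderm list. Members came to 27.6 per 100 kb of it in the naive pluripotency list, against 27.9 over all coding genes. Over the naive pluripotency list, 3 of 5 genes with far exons held 6 members, with 4 in SOX2-ON and 2 in SOX2-OFF, against 3 in CEpiLC. All members of the 4 state lists are given here, a choice made after their values were seen. Klf5, a Krüppel-like factor, held a 3′ UTR region at percentile 64.1 in SOX2-ON alone and a second region in all 3 lists (29.0, 50.6 and 64.8). Esrrb, an orphan nuclear receptor, held a 3′ UTR region at 9.17 in SOX2-ON alone. Its second region, at 52.7 in SOX2-OFF and 44.7 in CEpiLC, touched coding sequence but had its midpoint outside exons. Tfcp2l1, a CP2 family factor, held 3′ UTR regions at 49.7 in SOX2-ON alone and at 31.8 in CEpiLC alone.
Six3, a forebrain homeobox gene, held the 1 anterior member, at 33.2 in CEpiLC alone. The Nodal region shown above had folds of 1.84, 1.34 and 1.73 and percentiles of 62.1 in SOX2-ON and 27.1 in SOX2-OFF, against 70.4 in CEpiLC. T, the Brachyury factor of the primitive streak and mesoderm, held a 3640 bp region that touched coding sequence, at 53.4 in SOX2-OFF and 42.9 in CEpiLC with no SOX2-ON peak. Cdx1, a caudal homeobox gene, held one at 10.3 in SOX2-ON and 52.5 in SOX2-OFF with no CEpiLC peak. None of these members was strong in any list.

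Larger gene groups held more. In the WNT pathway list, 16 of 20 genes with far exons (80%) held 43 members, with 29 in SOX2-ON, 27 in SOX2-OFF, 25 in CEpiLC and 14 in all 3. This came to 44.4 members per 100 kb of far exonic sequence, against 27.9 over all coding genes. Chromatin regulators were similar, with 17 of 21 genes, 55 members and 47.5 per 100 kb, spread as 29, 35 and 35 over the lists. Chd5, a chromatin remodeller, led them at percentiles of 85.1, 85.1 and 84.4. Collagens stood close to the background of 27.9 at 29.9 per 100 kb, with 26 of 35 genes and 50 members, led by Col8a2 at 89.5, 89.9 and 92.0. The homeobox families held 39 members in 27 of 42 genes, at 22.6 per 100 kb, led by the Irx4 region shown above with folds of 3.13, 2.26 and 1.97 and percentiles of 86.7, 84.2 and 80.8. Zinc finger genes were low, with members in 37.5% of 269 genes and 18.1 per 100 kb. Of their 154 members 15 were strong, and 5.84% were CpG rich, against 10.3% in the homeobox families and 1.90% of all members. Protocadherins and large cadherins had the lowest rate of the 10 groups, 6.55 per 100 kb, with 11 members, led by Pcdh1 at 85.9, 88.8 and 88.4, and because the Pcdhg genes share exons these members touched 27 genes. These rates are descriptions of lists of unequal make-up, and no difference between lists was tested.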

How the data were processed

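ATAC-seq of 3 samples, 1 per group, was analysed from the broad peak lists. The authors ran the nf-core/atacseq pipeline, in which Trim Galore removes adapters and BWA maps the reads (here to mm10), filtered the alignments, discarded mitochondrial reads and called broad peaks in each sample with MACS2 (version not given in the sources used here). For each peak the authors deposited a display score (not used), a fold enrichment over the local background, and −log10 p and −log10 q values; transposase offset correction was not given in the sources used here.

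From these files, peaks on 16 autosomes were merged with bedtools 2.31.1 and annotated with GENCODE M21. The percentile of a region in a list is that of its peak with the highest −log10 p. Strong means the strongest 20% of a list. Shares have Wilson 95% intervals (scipy 1.17.1), which cover counting error only, since each group had 1 sample and regions of a list share its library. With 1 sample per group no test was run. Near-identical copies were sought with minimap2 2.31-r1302. The steps were tested on simulated data. RefSeq GRCm38.p6 gave the sequences.

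The members, gene lists and motifs were chosen with earlier results of these data known. Regions named are the 5 strongest of each list, the 3 strongest of each pattern that lacks a list, the 5 genes with most members (8 with ties), the strongest of each gene group and the 3 largest rank shifts in each direction between SOX2-ON and SOX2-OFF; others are said to be chosen after their values were seen. One region that this rule names is not reported here. The search for copies, the CpG-rich class and the width bins were added after seeing the data. The alternatives varied the peak threshold, the exon overlap, the distance, the starts used, the peak width, the strength and shift limits and the motif window.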

Additional observations from a re-analysis of the deposited data

How the results depend on the processing

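The share in all 3 lists was just above that over all regions as reported but below it under 6 of 7 alternatives, the exception being starts of every transcript type (31.3% against 31.2%). With peaks of −log10 q of at least 2, 4642 regions remained, with 34.2% in all 3 lists (all regions 37.7%) and 46.0% of midpoints in an exon. Of members strong in SOX2-ON, 8.57% lacked a SOX2-OFF peak (all regions 3.74%) and 13.7% a CEpiLC peak (all regions 6.24%). For SOX2-OFF, 0.610% lacked a SOX2-ON peak (all regions 0.812%) and 0% a CEpiLC peak (all regions 0.402%). For CEpiLC, 0.794% lacked a SOX2-ON peak (all regions 0.337%) and 0.794% a SOX2-OFF peak (all regions 0.144%). At −log10 q of at least 5 there were 1941 regions, 30.4% in all 3 lists (all regions 41.7%), 80.4% touching coding sequence and 41.7% of midpoints in an exon. Of 45 members strong in SOX2-ON, 4 lacked a SOX2-OFF peak (8.89%, all regions 1.30%) and 7 a CEpiLC peak (15.6%, all regions 2.51%). In the other ordered pairs 0% were missing, against 0.0440% to 0.173% over all regions. Regions at least 50% exonic numbered 3600, with 25.6% in all 3 lists (all regions 31.2%, 6.44 points above introns), 59.7% touching coding sequence and 97.2% of midpoints in an exon. Those with the midpoint in an exon numbered 4267, with 27.4% (8.17 points above introns), 65.6%, 100% and 9.20% of strong SOX2-ON members without a CEpiLC peak, below the 9.83% over all regions. Over 10 kb from every start, 5082 regions were left, 47.2% with the midpoint in an exon. With 500 bp intervals, 22.4% were in all 3 lists (all regions 26.3%, 5.11 points above introns), 76.8% touched coding sequence and 52.2% had the midpoint in an exon, and the missing shares were 4.08% (CEpiLC, no SOX2-ON peak), 4.30% (SOX2-OFF, no CEpiLC peak) and 5.28% (CEpiLC, no SOX2-OFF peak). With the strongest 10% as strong, SOX2-ON members lacked a SOX2-OFF peak in 4.23% and a CEpiLC peak in 4.23%, SOX2-OFF members lacked either other list in 0%, and CEpiLC members lacked SOX2-ON in 0.971% and SOX2-OFF in 0%. With the strongest 40%, these shares were 13.8%, 18.3%, 6.27% (SOX2-OFF, no SOX2-ON peak), 6.41% (SOX2-OFF, no CEpiLC peak), 10.4% and 6.28%, and all 6 lay below those over all regions (15.2%, 20.9%, 8.39%, 7.18%, 13.5% and 7.25%). Past 10 percentile points, rank shifts were 18.6% to SOX2-ON and 31.7% to SOX2-OFF (all regions 15.8% and 28.1%). They were 19% to SOX2-ON and 42.1% to CEpiLC (all regions 14.7% and 35.8%). Between SOX2-OFF and CEpiLC they were 21.5% to SOX2-OFF and 30.2% to CEpiLC (all regions 16.6% and 24.9%). Past 30 points they were 4.73% and 6.57%, 5.29% and 12.5%, and 5.90% and 8.05% in the same order. The shares over all regions were then 4.95% and 7.03%, 5.13% and 11.6%, and 4.63% and 6.58%. Between SOX2-ON and SOX2-OFF, members thus stood above all regions past 10 points and below them past 30 points. Ranked by fold, 14.4% shifted to SOX2-ON and 21.7% to CEpiLC (all regions 10.3% and 20.8%), and 14.0% to SOX2-OFF against CEpiLC (all regions 10.3%). Of the motif shares, 21 moved past their interval and 9 did not. The bins of width and of strength with 500 bp intervals were chosen after seeing the data. The cause of these changes was not tested. No paired analysis was possible because there was a single sample in every group. Read depth is unknown, so a missing peak may be a weak one, and no difference between samples has a replicate check.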
